A study of Homo sapiens with 34 samples.

Results

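The regions described here are stretches of chromatin carrying H3K27ac, the acetylation of lysine 27 on histone H3, that lay at the ends of protein-coding genes and were listed both with and without induction of a dominant negative TCF7L2. Regions were members when they came from the list of uninduced cells, were under 6 kb wide, overlapped a region of the induced list by at least 1 bp, and lay within 1 kb of either end of a RefSeq protein-coding gene on GRCh38. There were 12391 such regions among 78005 in the uninduced list on chromosomes 1 to 22 and X, or 15.9%. The members were chosen by their H3K27ac entries in both lists, so their H3K27ac values are given as a description, with no test.

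The cells were DLD1, a colorectal adenocarcinoma line, carrying a Tet-inducible transgene for dominant negative TCF7L2 and grown under zeocin and blasticidin. Induced cells had 1 µg/mL doxycycline for 24 h, and uninduced cells had none, so an effect of doxycycline and one of the transgene cannot be told apart. Chromatin immunoprecipitation with sequencing (ChIP-seq) was done against H3K27ac and against RNA polymerase II (Pol II), with 2 samples per antibody and condition and 1 input per condition, at 40 to 55M single-end reads of 75 bp per sample per the labels' protocols. For each group the labels name a single peak list that serves both of its samples. The 4 lists therefore carry no replicate spread, and no difference given here can carry a p-value. Fold enrichment and −log10 q are the authors' values for each peak, and a stronger list entry may come from more cells with the mark or from more mark per cell, which cannot be told apart. Nothing in the labels says whether the line was a single clone. The 24 RNA-seq samples of the series were not used here.

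H3K27ac is laid down by the acetyltransferases p300 and CBP on nucleosomes beside active promoters and enhancers. At a promoter the start site itself is kept free of nucleosomes, and Pol II loads there and often pauses a short way into the gene. In intestinal epithelium, β-catenin bound to TCF7L2 keeps stem and progenitor genes active, and the dominant negative form occupies the DNA without bringing β-catenin. Most human promoters are rich in CpG and bound by SP/KLF, ETS, NRF1, NFY and YY1 factors, while a smaller group uses a TATA box and is often tied to 1 cell type.

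The members covered these promoter types, and 6 stretches show the range. Each is the stretch of 250 bases before the RefSeq start (GRCh38.p14 promoter sequences), written 5′ to 3′ on the gene strand, with motif matches in capitals. The capitals mark the TCF/LEF core in the form CTTTGAT or the form CTTTGAA, boxes for NFY with the letters CCAAT, SP/KLF boxes with the letters GGGCGG, ETS sites with the letters CCGGAAG, AP-1 sites with TGANTCA and promoter boxes of the TATA type with TATAAA. The last were searched on the gene strand only and the others on either strand. SP5 is a Wnt target, GRK2 and RPL31 stand for CpG-rich starts, REG4 gained H3K27ac place, PNPLA1 lost it, and MMP7 was the Wnt target with the largest gain.
SP5 (chr2:170715087-170715336, plus strand): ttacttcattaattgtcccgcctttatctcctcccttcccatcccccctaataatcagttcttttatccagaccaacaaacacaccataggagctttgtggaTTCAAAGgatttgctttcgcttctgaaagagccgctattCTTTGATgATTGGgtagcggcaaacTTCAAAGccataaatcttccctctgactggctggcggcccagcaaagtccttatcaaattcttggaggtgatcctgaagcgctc
MMP7 (chr11:102530748-102530997, minus strand): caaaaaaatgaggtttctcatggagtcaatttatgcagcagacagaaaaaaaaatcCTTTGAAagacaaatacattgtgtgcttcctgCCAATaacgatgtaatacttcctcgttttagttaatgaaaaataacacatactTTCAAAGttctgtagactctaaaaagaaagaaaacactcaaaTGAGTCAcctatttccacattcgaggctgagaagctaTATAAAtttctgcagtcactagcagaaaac
REG4 (chr1:119811461-119811710, minus strand): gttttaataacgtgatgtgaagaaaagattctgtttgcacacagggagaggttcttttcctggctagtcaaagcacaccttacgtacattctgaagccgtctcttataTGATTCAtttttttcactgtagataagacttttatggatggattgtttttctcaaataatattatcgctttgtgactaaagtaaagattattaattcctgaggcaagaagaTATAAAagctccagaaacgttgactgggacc
PNPLA1 (chr6:36242918-36243167, plus strand): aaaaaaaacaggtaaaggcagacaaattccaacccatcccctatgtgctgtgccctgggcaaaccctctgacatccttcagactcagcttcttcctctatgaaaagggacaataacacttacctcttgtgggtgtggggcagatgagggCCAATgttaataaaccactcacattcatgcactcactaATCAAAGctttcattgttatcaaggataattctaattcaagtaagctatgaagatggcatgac
GRK2 (chr11:67266223-67266472, plus strand): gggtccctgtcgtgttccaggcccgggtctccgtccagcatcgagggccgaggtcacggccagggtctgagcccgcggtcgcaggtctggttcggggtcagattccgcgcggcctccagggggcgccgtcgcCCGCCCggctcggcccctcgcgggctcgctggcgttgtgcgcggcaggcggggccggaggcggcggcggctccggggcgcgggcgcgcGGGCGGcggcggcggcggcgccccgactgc
RPL31 (chr2:101002039-101002288, plus strand): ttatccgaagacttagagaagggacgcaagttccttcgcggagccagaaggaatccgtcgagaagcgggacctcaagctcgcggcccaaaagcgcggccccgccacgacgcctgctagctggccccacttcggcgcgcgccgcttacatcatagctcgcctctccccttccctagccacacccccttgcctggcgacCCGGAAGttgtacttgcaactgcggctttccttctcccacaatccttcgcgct
The GRK2 window of 300 bases (250 before to 50 after the start) was 82.3% G and C with 53 CpGs, and the RPL31 window was 61.3% with 27. The REG4, PNPLA1 and MMP7 windows held 5, 0 and 4 CpGs. SP5 was the one window of these with both forms of the TCF/LEF core.

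Most members sat at the start of a gene. A start within 1 kb was found for 8903 members, 71.9%, using the strand of the 15812 of 19974 protein-coding genes that matched the RefSeq promoter table. A further 1243 (10.0%) reached only the far end of a gene. The other 2245 (18.1%) reached no known start but an end of a gene outside that table. They were left unassigned, whether or not they also reached a known far end. Starts on both strands, as at divergent promoters, lay within 1 kb of 1130 members. In all 12242 genes had a member, 61.3% (Wilson 95% interval 60.6 to 62, counting error only), and 2433 had more than 1. One gene was reached by 9958 members, 2 genes by 2277, and 3 or more by 156. The share of genes with a member was highest on chromosome 16, at 70.4%, and lowest on chromosome X, at 46%, and on chromosome 11, at 53.4%.

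The members were wide and strongly enriched next to the 51775 shared regions of the same width limit away from gene ends. Their median fold was 21.9 in the induced list and 19.4 in the uninduced list, against 6.73 and 6.26 away from gene ends. Median −log10 q was 138 induced and 145 uninduced, against 20.7 and 20.6. Induced regions covered a median of 96.6% of a member's 2156 bp, against 93.5% of 1170 bp. Strength followed the kind of end. Members at starts had a median fold of 23.4 induced and 20.6 uninduced, those at far ends 7.94 and 7.3, which is near the regions away from gene ends. Unassigned members had 20.7 and 18.4, nearer to the members at starts. Regions that crossed a gene end, 10028 of them, had a median fold of 23.8 induced and 21.1 uninduced. The 812 in the outer 500 bp of the window had 7.57 and 6.26, and the 865 up to 500 bp beyond it, which are not members, 7.61 and 6.21. At the width limit, the 167 members up to 500 bp below 6 kb had 29.6 and 25.4, and the 123 regions up to 500 bp above it 32.5 and 27.2.

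The 6 strongest members by uninduced −log10 q belonged to genes of varied function. PIK3C2B, a class II phosphoinositide kinase, had the highest uninduced entry, at chr1:204491128-204496266, with fold 41.7 and −log10 q 345 in the induced list, against fold 39.4 and −log10 q 382 in the uninduced list. GRK2, a kinase that desensitises G protein-coupled receptors, had fold 23.7 and −log10 q 279.7 in the induced list, against fold 30.9 and −log10 q 381 in the uninduced list at chr11:67265801-67269860. RHOC, a small GTPase of the actin cytoskeleton, had fold 47.8 and −log10 q 326 in the induced list, against fold 47.2 and −log10 q 370.4 in the uninduced list at chr1:112703422-112708318. The other three of the 6 highest were CLCF1, a cytokine, ERBIN, a scaffold at the basolateral membrane, and FNBP1L, a linker of membrane curvature to actin. GRK2 had a place of 98.996 in the induced list and the other five had higher ones, where place is the percentile by −log10 q among the 66669 shared regions of each list. All 6 overlapped Pol II in both lists.

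Around the start, H3K27ac summits flanked the position that Pol II summits held. Among the 7304 members with the start of 1 gene, the highest H3K27ac summit lay downstream in 74% in the induced list and 74.1% in the uninduced list, at a median of +243 and +244 bp. Only 2.9% induced and 2.93% uninduced lay within 100 bp of the start. In 50 bp bins the H3K27ac summits peaked at +250 bp, with 24 per 100 regions induced and 23.4 uninduced, and again upstream at −300 bp induced and −350 bp uninduced. The bin at the start held 0.986 per 100 regions induced and 1.04 uninduced. Pol II summits peaked at +50 bp, with 27.3 per 100 regions induced and 27 uninduced. The highest Pol II summit was within 100 bp of the start in 54.4% induced and 56% uninduced of members with such a summit (6781 and 6829). The layout differed between the lists by at most a bin for the upstream H3K27ac shoulder and not at all for the downstream peak or the Pol II peak.

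**Figure D1:**
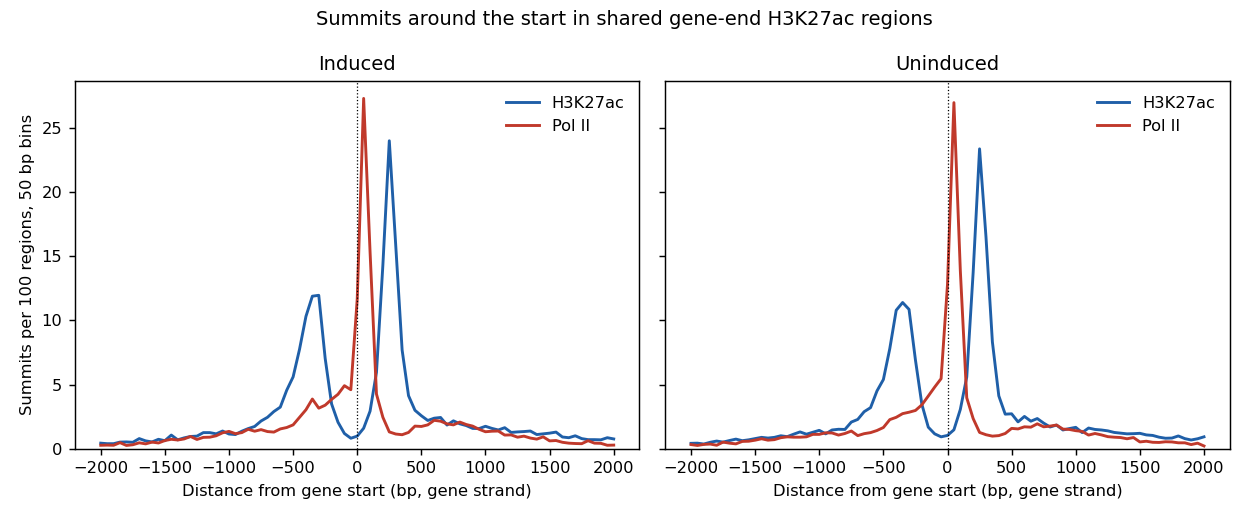
H3K27ac (blue) and Pol II (red) summits per 100 regions in 50 bp bins around the start of 7304 members with the start of 1 gene, in the induced (left) and uninduced (right) lists. In both panels the Pol II peak at +50 bp falls between an upstream and a downstream H3K27ac peak, the downstream one at +250 bp being the higher.

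Pol II was not used to choose the members, and most of them carried it. In the induced list 11067 members overlapped a Pol II region, 89.3% (88.8 to 89.8), and in the uninduced list 11304, 91.2% (90.7 to 91.7). Both lists had Pol II at 11013 members, 88.9% (88.3 to 89.4), against 38.5% of all 66669 shared regions. Neither list had it at 1033, 8.34% (7.86 to 8.84), against 53.7%. Pol II in the induced list alone was found at 54 members, 0.436% (0.334 to 0.568), against 1.16% of all shared regions, and in the uninduced list alone at 291, 2.35% (2.1 to 2.63), against 6.68%. Starts and far ends differed in this. Pol II in both lists was found at 94.4% of members at starts, 98.7% of those with starts on both strands and 56.1% of those at far ends. Among unassigned members the share was 85.1%. Far ends also had the larger share with Pol II in the uninduced list alone, 8.21% against 1.3% at starts, without regard to H3K27ac strength.

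Members carried Pol II more often than shared regions of equal H3K27ac away from gene ends. The trait is not particular to members. The 828 shared regions at gene ends of 6 kb or wider had Pol II in both lists at 98.7%, against 88.9% of members. Shared regions were split into deciles of uninduced −log10 q, and members were set beside regions within genes and between genes of the same decile. In the lowest decile 40.4% of 337 members had Pol II in the induced list and 44.8% in the uninduced list, against 6.75% and 8.77% within genes and 7.95% and 9.78% between genes. In the seventh decile the shares were 91.3% and 93.5% of 1038 members, against 32.6% and 43% within genes and 42.5% and 54.3% between genes. In the highest decile the classes came close, at 99.9% and 100% for 3640 members, 91.7% and 96.9% within genes, and 93.2% and 98.7% between genes. Width moved with Pol II as well, and its part in these shares was not tested beyond the comparison of regions of like width. Among regions under 500 bp wide, 47.2% of members had induced Pol II and 54.1% uninduced Pol II, against 8.93% and 10.7% within genes. Among those from 2 kb to under 3 kb the values were 96.4% and 97.2% of members, against 34.7% and 43.6% within genes.

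The share with Pol II in the uninduced list alone changed order with H3K27ac. In the first to the fifth decile it was higher at members, 7.12% to 9.43%, against 2.25% to 5.4% within genes and 2.57% to 8.82% between genes. From the sixth decile on it was lower at members, and in the eighth it was 1.85% of members, 16.1% of regions within genes and 17% of those between genes. Among members, the first to the fifth decile had 7.9% to 9.71% at starts and 5.92% to 12.1% at far ends. From the sixth to the ninth decile far ends had the larger share, 6.19% to 11.8% against 0.083% to 2.27% at starts. The induced Pol II list is the shorter one, with 50665 regions against 57247 in the uninduced list. With lists of equal length Pol II was in the induced list alone at 70 members and in the uninduced list alone at 253, against 54 and 291 with the full lists.

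**Figure D2:**
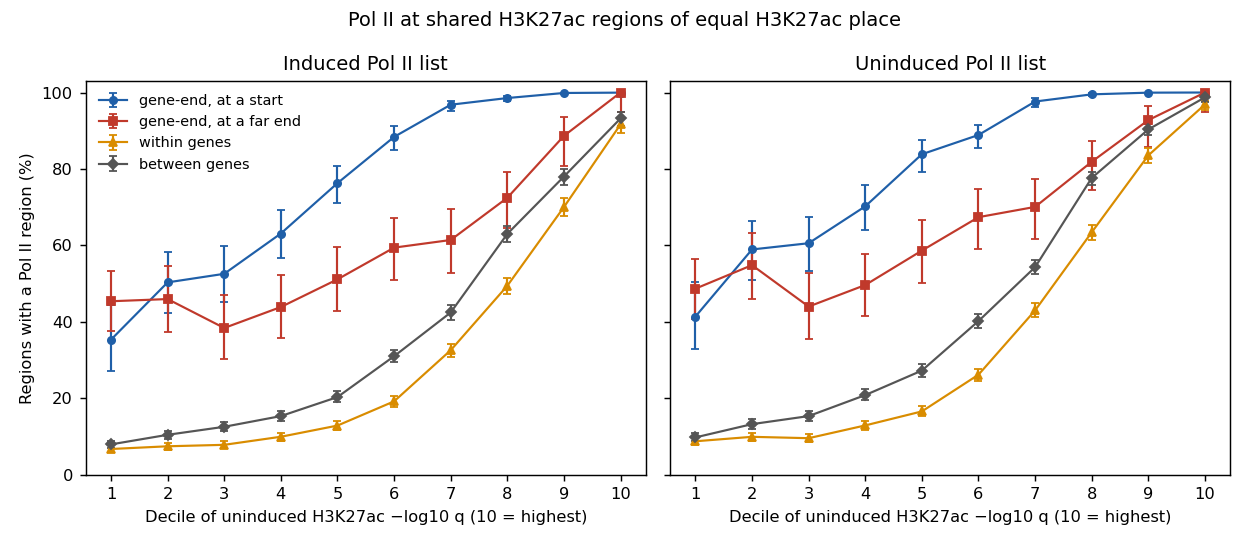
Percent of shared H3K27ac regions under 6 kb with a Pol II region, by decile of uninduced H3K27ac −log10 q, for the induced (left) and uninduced (right) Pol II lists; bars are Wilson 95% intervals for counting error. Members at starts (blue) run above regions within genes (orange) and between genes (grey) in every decile, least in the highest, and members at far ends (red) lie between them from the second to the ninth decile.

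Pol II in 1 list alone was mostly weak. The median Pol II fold was 3.42 at the 54 members with it in the induced list alone and 3.63 at the 291 with it in the uninduced list alone, against 23.1 and 24.4 over all members with Pol II in the induced and in the uninduced list. The strongest by −log10 q in the induced list alone stood at TUT1, a terminal uridylyltransferase, with Pol II fold 35.3, FOXO6, a forkhead factor, with 22.5, NEIL3, a DNA glycosylase, with 21.4, and SH3GLB2, an endophilin-like protein, with 20.5. In the uninduced list alone they stood at PRKCZ, an atypical protein kinase C, with 18.1, ABI1, an adaptor of the actin regulator WAVE, with 35.1, PPARD, a fatty acid receptor, with 32.2, and UBE2H, a ubiquitin-conjugating enzyme, with 27. The 4 uninduced-alone regions had a low H3K27ac fold, 2.27 to 4.64 induced and 2.84 to 3.13 uninduced. No Pol II summit lay inside these members, apart from PRKCZ with an uninduced −log10 q of 5.91, so the folds are those of Pol II regions whose summits lie outside. PPARD had a second, stronger member with Pol II in both lists, so the weak one is a side region of that gene.

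Where both lists had Pol II, its place moved little. Of 11013 members, 29 had a Pol II place over 20 percentile points higher in the induced list, 0.263% against 0.679% of all such shared regions, and 102 had one over 20 points lower, 0.926% against 1.67%. The shared regions include the members. Where the uninduced list had Pol II, its median −log10 q was 199 at members and 15.4 at shared regions away from gene ends. Members thus tended to rank high, and a region within 20 points of the top cannot gain over 20. CBLC, an epithelial ubiquitin ligase, had the largest gain, with Pol II fold 34.6 induced and 4.03 uninduced. PAIP2B, a repressor of poly(A)-binding protein, had 20.5 induced and 3.27 uninduced. The largest losses were at members with weak H3K27ac. SYNGR3, a synaptic vesicle protein, had Pol II fold 3.18 induced and 40.2 uninduced, and the member at ends of DDIT3, a stress factor, and MARS1, a methionyl-tRNA synthetase, had 5.94 induced and 53.4 uninduced. The far end of RPL3, a ribosomal protein gene, had 3.32 induced and 36.3 uninduced. H3K27ac fold at these 3 was 3.09 to 3.79 induced and 2.98 to 3.72 uninduced. A Pol II fold belongs to the whole overlapping Pol II region, and most of these named differences came from summits outside the member. By Pol II summits inside it, −log10 q was 3.05 induced and 2.17 uninduced at SYNGR3, 3.05 induced and 4.75 uninduced at RPL3, and 5.57 induced and 5.44 uninduced at PAIP2B. CBLC had no induced Pol II summit inside and an uninduced one of 6.88. The member at DDIT3 and MARS1 had a lower value in the induced list here too, with 3.64 induced and 17.9 uninduced. Over members with Pol II, the median −log10 q was 145 in the induced list and 199 in the uninduced list. Summits inside members were not ranked within a list.

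H3K27ac places at gene ends differed little between the lists. The difference in place, induced minus uninduced, was over 20 points up at 265 members, 2.14% (1.9 to 2.41), against 5.92% of all shared regions, and over 20 points down at 154, 1.24% (1.06 to 1.45), against 5.77%. Since the lists chose the members, nothing is read from these shares. Many of the gains were at regions that were split in one list and joined in the other. PPARG, a fat and colonocyte nuclear receptor, had the largest gain at a sliver of 344 bp at chr3:12286470-12286813, with fold 38.2 and −log10 q 280.2 in the induced list, against fold 2.2 and −log10 q 1.82 in the uninduced list, and the induced region it touched also overlapped other uninduced regions. S100P, a calcium-binding protein, had a member of 566 bp that touched 2 induced regions, with fold 36.2 and −log10 q 305 in the induced list, against fold 2.5 and −log10 q 2.54 in the uninduced list. By summits inside the member the induced fold was 3.48 at PPARG, and S100P had no induced summit inside. Only 14.7% of the gains, but 79.2% of the losses, were at members paired one to one, meaning that the member met 1 induced region and that region met no other uninduced region.

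Among the 10705 members paired one to one, 39 gained over 20 points, 0.364% (0.267 to 0.498), against 2.01% of all such pairs, and 122 lost, 1.14% (0.955 to 1.36), against 5.77%. A region within 20 points of the top cannot gain over 20. The median uninduced place was 82.3 for these members and 50 over all shared regions, so their share of gains was limited in advance. The spread was narrower at gene ends than away from them at equal H3K27ac, but barely so in the second decile. There the quartiles were −7.31 and 7.7 points for 299 members, against −8.35 and 6.93 within genes and −6.81 and 8.77 between genes. In the fifth decile the differences had quartiles of −8.61 and 4.16 points for 470 members, against −13.5 and 2.44 within genes and −12.6 and 3.5 between genes. In the ninth decile the quartiles were −3.24 and 2.84 for 2681 members, against −7.3 and 1.7 within genes and −7.1 and 0.968 between genes. The median difference in the ninth decile was −0.341 for members, −2.3 within genes and −3.04 between genes.

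**Figure D3:**
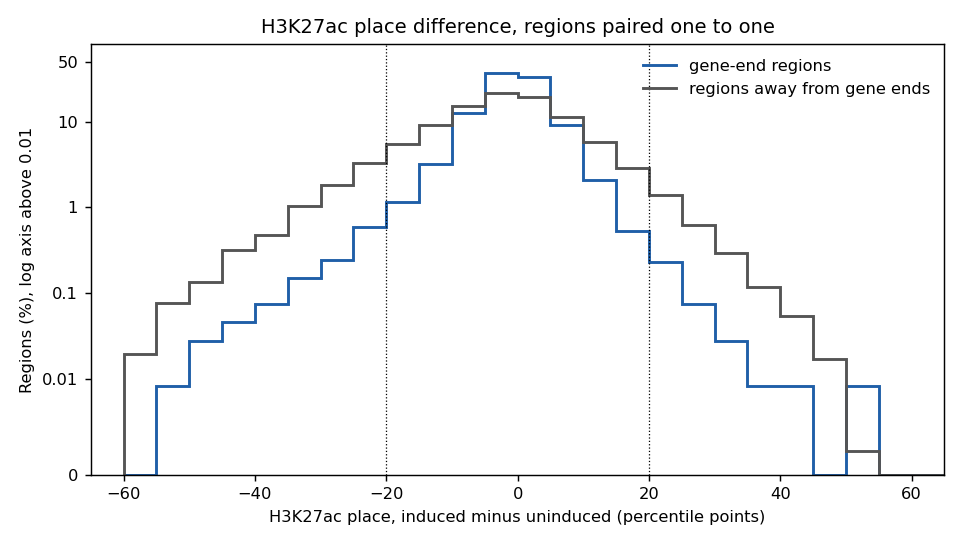
H3K27ac place difference, induced minus uninduced, in bins of 5 percentile points, as a percent of regions paired one to one (log axis above 0.01). The 10705 members (blue) are gathered more closely around 0 than the shared regions away from gene ends (grey), and dotted lines mark 20 points either way.

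Among paired members the moves over 20 points were mostly at regions weaker than the typical member. The median uninduced place was 16.5 for the 39 gains and 42.6 for the 122 losses, against 82.3 for all 10705. A loss over 20 points needs a place above 20, and some losses began high, at 69.1 for the YAP1 far end and 84.4 for PROB1. ADORA2B, ACER3, CBLIF and PROB1 were chosen for naming after their values were seen. The gain at REG4, a secreted lectin of enteroendocrine and goblet-like cells, was at its start, chr1:119810692-119812629, with fold 14 and −log10 q 71.3 in the induced list, against fold 4.09 and −log10 q 15.9 in the uninduced list. No Pol II region lay there in either list. ADORA2B, an adenosine receptor, had fold 8.88 and −log10 q 28.3 in the induced list, against fold 2.6 and −log10 q 2.51 in the uninduced list, and ACER3, a ceramidase, had fold 9.0 and −log10 q 49.9 in the induced list, against fold 2.72 and −log10 q 3.89 in the uninduced list at its far end. Members that moved either way were more often away from starts than paired members at large. Far ends made up 41% of the 39 gains and 49.2% of the 122 losses, against 9.08% of all 10705. No Pol II in either list was seen at 64.1% of the gains and 59.8% of the losses, against 7.23%. Members at far ends and members without Pol II were weaker, with median uninduced places of 46.4 and 29.4, against 81.8 over all members. These shares of the moved members were not compared at equal place. RTF2, a replication fork factor, lost the most, at its far end, with fold 2.98 and −log10 q 3.09 in the induced list, against fold 10.7 and −log10 q 43.8 in the uninduced list. PNPLA1, a skin lipid acyltransferase, had fold 2.35 and −log10 q 1.77 in the induced list, against fold 7.75 and −log10 q 27.1 in the uninduced list at its start, chr6:36243007-36244251. A second PNPLA1 member, ending 469 bp before that start, had fold 24 induced and 24.4 uninduced and carried Pol II in both lists. CBLIF, the gastric intrinsic factor, had fold 2.23 and −log10 q 2.19 in the induced list, against fold 6.91 and −log10 q 24.3 in the uninduced list. The far end of YAP1, a Hippo pathway coactivator, had fold 3.86 and −log10 q 9.84 in the induced list, against fold 12.4 and −log10 q 84.9 in the uninduced list. None of the regions at RTF2, the PNPLA1 start, CBLIF and the YAP1 far end had Pol II in either list. PROB1 was the strongest loser among the 10 largest losses at starts, with fold 9.81 and −log10 q 33.5 in the induced list, against fold 25.6 and −log10 q 159.6 in the uninduced list, and had Pol II fold 11.2 induced and 15.7 uninduced.

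Gene lists were read through 1 member per gene, the one with the highest uninduced −log10 q. Over all 12242 genes with a member, the median place difference was −0.474 points, and 55.2% had a lower place in the induced list. Of 40 Wnt and TCF targets 29 had a member and 8 more had only a region of 6 kb or wider, among them AXIN2, RNF43 and ASCL2. The 29 had a median difference of −4.36 points, with 7 higher and 22 lower in the induced list, and 25 had Pol II in both lists. The 25 paired one to one had a median of −4.39, with 5 higher and 20 lower. One Wnt target, YAP1 at its far end, passed 20 points.

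Some feedback inhibitors and receptors of the pathway were among the 22 with a lower place. The inhibitor gene DKK1 was on the higher side, with an H3K27ac fold of 18.2 induced and 14.6 uninduced. Its member lay at the far end of the gene and had no Pol II region in either list. APCDD1, a membrane inhibitor of Wnt, had an H3K27ac fold of 17.3 induced and 24.2 uninduced, with places of 78.2 induced and 91.7 uninduced. NOTUM, which removes the lipid of Wnt proteins, had 9.25 induced and 13.5 uninduced, and NKD1, an intracellular inhibitor, 33.1 induced and 37.5 uninduced. TNFRSF19, a receptor of intestinal stem cells, had 17 induced and 20.5 uninduced. LGR5, the R-spondin receptor that marks those cells, had 29.4 induced and 33.1 uninduced, with places of 95 induced and 99.7 uninduced. All 5 places were lower in the induced list, with differences of −13.5 to −4.73 points. The growth factor gene FGF20 had 13.3 induced and 18 uninduced. The adrenergic receptor gene ADRA2C had 12.2 induced and 16.3 uninduced, and its Pol II fold was 6.34 induced and 16.9 uninduced. MYC had a member of low fold at 1 end, not assigned as start or far end, with 3.72 induced and 4.84 uninduced. TCF7L2 itself had 8.23 induced and 8.29 uninduced. Fold did not always follow place. ZNRF3, EPHB2, EPHB3, SOX4, SLC12A2 and LRIG3 were also among the 22 but had a higher fold in the induced list. At ZNRF3 the fold was 37 induced and 28.2 uninduced.

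A few Wnt targets stood on the other side. SP5, a zinc finger factor whose promoter stretch above carries 3 TCF/LEF cores, had a fold of 43.4 induced and 21.1 uninduced at chr2:170711030-170716818. Its −log10 q was 288 induced and 238 uninduced, its place 99.3 induced and 95.2 uninduced, and its Pol II fold 31.5 induced and 22.5 uninduced. BAMBI, a decoy receptor of TGF-β signalling, had 36 induced and 19.2 uninduced, with Pol II fold 58.1 induced and 41.2 uninduced. MMP7, a secreted protease, had a weak member of 299 bp with 3.63 induced and 2.0 uninduced and no Pol II region.

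Most secretory lineage genes with a member had a higher place in the induced list, and colonocyte genes were split. Of 25 secretory lineage genes 17 had a member, with a median difference of 2.96 points, 12 higher and 5 lower. Besides REG4, CREB3L1, a membrane-bound transcription factor, had 27.1 induced and 9.07 uninduced without a one-to-one pair, and passed 20 points. By summits inside the member its induced fold was 12.8. The trefoil factor TFF2 had 5.76 induced and 3.8 uninduced, the membrane mucin MUC13 7.01 induced and 4.81 uninduced, and AGR2, a disulfide isomerase needed for mucins, 33.1 induced and 19.7 uninduced. GFI1, a repressor in secretory precursors, lay on the lower side with 5.99 induced and 6.96 uninduced. Of 40 colonocyte differentiation genes 20 had a member, with a median of 1.35 points, 11 higher and 9 lower. The lectin gene LGALS4 had 11.3 induced and 8.3 uninduced and Pol II fold 6.52 induced and 4.71 uninduced. KRT19, a simple epithelial keratin, had 37.2 induced and 13.7 uninduced, not paired one to one, and its Pol II fold was 19.4 induced and 34.5 uninduced. By summits inside that member the H3K27ac fold was 16.7 induced, and Pol II −log10 q was 109 induced and 119.8 uninduced. GUCA2A, which encodes the hormone guanylin, had 23.9 induced and 15 uninduced, also not paired one to one, and Pol II fold 19.6 induced and 13.9 uninduced. GUCA2B and GUCY2C, the other ligand and the receptor, had no member.

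Most genes of the amino acid and mitochondrial stress response with a member had a lower place in the induced list. Of 20 such genes 16 had a member and 4 (ATF4, DDIT4, GDF15 and HMOX1) only a wide region. The 16 had a median difference of −4.11 points, with 5 higher and 11 lower, and 2 of them, HSPD1 and HSPE1, share 1 divergent member. PCK2, the mitochondrial phosphoenolpyruvate carboxykinase, had 24.2 induced and 34.1 uninduced, SHMT2, an enzyme of one-carbon metabolism, 22.2 induced and 27 uninduced, and the mitochondrial protease gene LONP1 24.8 induced and 33.7 uninduced. ASNS, asparagine synthetase, was higher at a weak member, with 8.65 induced and 4.9 uninduced. Interferon and inflammation genes had a median of −1.58 over 24 with a member, 6 higher and 18 lower. The 19 of them paired one to one had a median of −4.06, with 6 higher and 13 lower, close to the paired Wnt targets. CXCL8, a neutrophil chemokine, had 7.5 induced and 9.14 uninduced at its start. The ribosomal protein genes had a median of −1.84 over 68, with 23 higher and 45 lower, and all 68 had Pol II in both lists. The 55 of them paired one to one had a median of −2.1, with 15 higher and 40 lower. Proteasome genes (0.148 over 35), cell cycle and growth genes (0.455 over 30), replication-dependent histone genes (−0.43 over 26) and housekeeping genes (0.0784 over 18) lay near the median of all genes. Of the 63 histone genes 30 had only wide regions, and neighbouring histone genes share members.

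**Figure D4:**
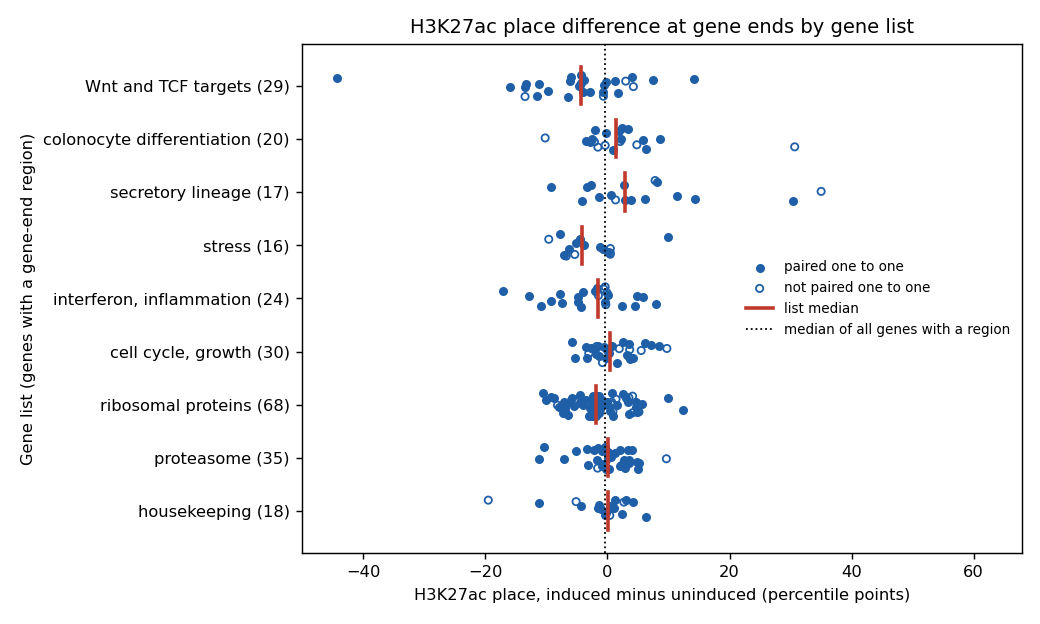
H3K27ac place difference, induced minus uninduced, for each gene with a member (blue points, filled where paired one to one) in 9 gene lists, with the list median (red) and the median of all 12242 genes with a member (dotted). The Wnt and stress medians lie at −4.36 and −4.11 points, and the ribosomal and interferon medians at −1.84 and −1.58. The secretory and colonocyte medians lie at 2.96 and 1.35, and the other lists lie near the dotted line.

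Markers of the labelled line were present. All 10 epithelial markers had H3K27ac at a gene end in both lists, 6 as members (EPCAM, KRT19, VIL1, LGALS4, ELF3 and HNF4A) and 4 as wide regions (KRT8, KRT18, CDH1 and CDX2). Of 20 immune, stromal and endothelial markers 6 had a member (CD14, CD68, COL1A1, DCN, ACTA2 and PECAM1) and 1 a wide region (CD3E), while PTPRC, CD3D, COL3A1, VWF and CDH5 were among those with neither. Their H3K27ac fold was highest at the macrophage marker CD68, with 30.8 induced and 25.2 uninduced, and at the smooth muscle actin gene ACTA2, with 27.3 induced and 14.6 uninduced. Of 20 liver, muscle and neuron markers 5 had a member (APOA1, SERPINA1, MB, RBFOX3 and GRIN1), while ALB, MYH7 and CKM were among those without. The member at GRIN1, a glutamate receptor gene, also lay at ends of LRRC26 and TMEM210, and had 23.7 induced and 26.8 uninduced. RBFOX3, a neuronal splicing factor, had 28.5 induced and 25.7 uninduced, and MB, myoglobin, 27.5 induced and 18.7 uninduced.

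The promoter sequences under members were CpG-rich. A RefSeq window of 300 bases lay under a member for 8634 genes and under no H3K27ac region of either list for 5914, out of 15812 windows. The windows under members had a median of 65.7% G and C and 27 CpGs, those under no region 55.3% and 7, and all windows 62.7% and 22. Motif shares followed. The SP/KLF box was found in 73.6% of windows under members, 34.6% under no region and 58.5% of all windows. The ETS site was found in 21.6% under members, 3.57% under no region and 14.2% of all windows, the YY1 site (ATGGCGG) in 11.6% under members, 2.16% under no region and 7.63% of all windows, and the NRF1 site (GCGCATG) in 8.23% under members, 2.33% under no region and 5.87% of all windows. CRE (TGACGTC) and the E-box (CACGTG) had smaller differences, with 6.0% under members, 2.47% under no region and 4.59% of all windows for CRE and 10.5% under members, 6.29% under no region and 8.87% of all windows for the E-box. The CCAAT box was nearly even, at 37.1% under members, 35.4% under no region and 36.3% of all windows. Matches were counted on either strand except for the TATA box, and matches of different motifs may overlap.

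Motifs rich in A and T ran the other way. A TATA box was found in 3.22% of windows under members, 12.3% under no region and 6.92% of all. A TCF/LEF core of either form was found in 3.53% under members, 8.44% under no region and 5.49% of all windows, and the AP-1 site in 4.24% under members, 8.05% under no region and 5.76% of all windows. Base composition moved with all of these shares, and its part in them was not tested. The 142 windows under members without Pol II in either list were unlike the other windows under members, with a median of 5 CpGs, a TATA box in 16.2% and an AP-1 site in 14.8%, while an ETS site was found in 3.52%. The REG4, MMP7 and PNPLA1 stretches printed above belong to such windows. The strongest members at starts without Pol II, picked after values were seen, were at FN1, the matrix protein fibronectin, with H3K27ac fold 25.1 induced and 20.4 uninduced, and at SASH1, a signalling scaffold, with 29.9 induced and 18.5 uninduced. The FN1 member stopped 265 bp short of the gene boundary, and its highest summit lay 2609 bp from it.

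**Figure D5:**
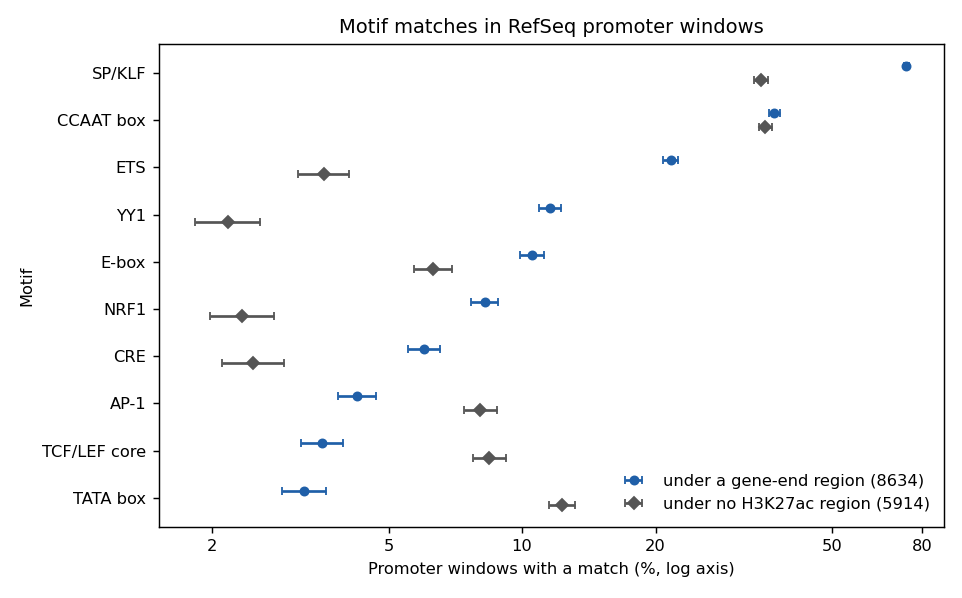
Percent of RefSeq promoter windows (300 bases) with at least 1 match to each motif, under a member (blue, 8634 windows) and under no H3K27ac region (grey, 5914 windows), on a log axis with Wilson 95% intervals for counting error. SP/KLF, ETS, YY1, NRF1, CRE and E-box shares are higher under members, AP-1, TCF/LEF and TATA shares are lower, and the CCAAT shares lie close together.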

How the data were processed

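Chromatin was sheared by sonication to 250 to 300 bp and sequenced as single-end reads of 75 bp, per the labels' protocols. The submitters' processing notes name the peak caller MACS2 2.1.1.20160309, the aligner BWA 0.7.17-r1188, deepTools 3.5.0 and SAMtools 1.10, with builds hg19 and hg38, without giving each a role. The deposited lists are on GRCh38, and they hold for each summit the authors' fold enrichment, a ratio over local background, and the authors' −log10 q, which starts at 1.30. Filters, caller settings and pooling of reads are unknown here. Both values depend on depth and input, so they rank regions within a list only.

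Rows of the same region were collapsed, keeping the highest −log10 q and fold. Chromosomes other than 1 to 22 and X were left out. Overlaps needed at least 1 bp, and the count of 66669 shared regions was the same in bedtools 2.31.1. Shares have Wilson 95% intervals. Place is the percentile by highest −log10 q among shared regions, or, for Pol II, among shared regions with Pol II in both lists, and a difference over 20 points was counted as moved. Gene ends came from RefSeq (GRCh38.p14), which lists 19974 protein-coding genes, and starts and promoter sequences from the 15812 with a matching RefSeq promoter entry. The overlap and place code was tested on simulated data.

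The members, the 14 gene lists and the rule for named genes were chosen with earlier results of these data known, so none of the patterns is independent support of another. The rule named 10 Wnt, guanylate cyclase C and TCF genes in any case, up to 2 genes per list with the largest gain and up to 2 with the largest loss, and the extremes of H3K27ac strength, H3K27ac place and Pol II. Not all of them are printed, and other names were added after their values were seen. Alternatives covered the window, the width, the overlap, the −log10 q minimum, the ranking value, the limit of points and the length of the Pol II lists.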

Additional observations from a re-analysis of the deposited data

How the results depend on the processing

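Of 144 alternative values computed, 112 stayed within 1.5 times a count or within the interval of a share, and 32 moved; no single value changed direction. The balance of H3K27ac gains over losses did turn. It was 265 higher against 154 lower as reported, but 39 against 122 among regions paired one to one, 83 against 112 using summits inside the region and 659 against 694 with a limit of 10 points. Depth per list is not recorded, so a missing overlap is no proof of a missing mark. No paired analysis was possible because a single list stands for the 2 samples of each group and no result comes from a test, and for the same reason no sample could be left out. The number higher was also 495 with windows of 2 kb and 462 ranked by fold. The settings one to one and summits inside were chosen after seeing the data. The number lower was 403 ranked by fold. Pol II in the induced list alone was at 54 members as reported, 88 with windows of 2 kb and 126 by summits inside the region. A higher Pol II place was found at 29 as reported, 657 with a limit of 10 points and 17 one to one, and a lower one at 102, at 711 with a limit of 10 points and at 51 by summits inside the region. The median width of 2156 bp became 2212 bp with windows of 500 bp, 2054 bp with 2 kb, 2227 bp at a −log10 q of at least 5, 2173.5 bp with 50% of the region covered, 2249 bp at any width and 2143 bp one to one. A TCF/LEF core was in 3.53% of windows under members and in 4.47% of those holding the member's highest summit. By construction a lower limit calls more regions; for the other changes the cause was not tested.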

Other observations

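The strongest members at the far end of a gene, picked after values were seen, were strong in both lists. DENND1A, an exchange factor for a Rab GTPase, had H3K27ac fold 47.7 induced and 30.8 uninduced, and HES1, a Notch target, had 39.6 and 36.3. TEX2 had 40.5 and 31.8, with Pol II fold 57.9 and 50.8. The highest summit lay 3187 bp from the gene boundary at DENND1A, 2526 bp at HES1 and 922 bp at TEX2. The DENND1A member stopped 661 bp short of that boundary.

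Members at neighbouring genes can be the same region. HSPD1 and HSPE1 shared 1 member, as did H2AC11 and H2BC11, so their values are not independent. TP53TG3C and NPIPB4 belong to families of near-identical copies, and values at these 2 genes are uncertain. TP53TG3C had H3K27ac fold 2.22 induced and 7.43 uninduced, and NPIPB4 had 2.3 and 4.85.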
